A study of Caenorhabditis elegans with 2 samples.

Results

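The insulin-like peptide genes of Caenorhabditis elegans were examined for DAF-12 binding in L3 larvae. They were taken as every gene of the WBcel235 annotation whose name is ins- followed by a digit, together with daf-28, which gave 40 genes. Of these, 39 are protein-coding, out of 19973 protein-coding genes in all, and the remaining one, ins-38, is an annotated pseudogene that is described separately. Binding was measured by ChIP-seq of whole larvae of strain OP222, genotype unc-119(ed3) III; wgIs222, in which an integrated transgene supplies DAF-12 tagged with eGFP. There was 1 group of 2 samples, numbered by the labels as biological replicates 1 and 2, each of pooled male and female animals. No untagged or other group was compared, so the values below describe where signal lay and carry no test. Because whole animals were used, signal from a few cells and weak signal from many cannot be told apart.

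Insulin-like peptides are secreted ligands of DAF-2, the insulin and IGF-1 receptor of the worm. Receptor activity passes through the phosphatidylinositol 3-kinase AGE-1 and the AKT kinases to hold the FOXO transcription factor DAF-16 out of the nucleus, which favours reproductive growth over dauer arrest, and some family members act as agonists and others as antagonists. DAF-12 is the nuclear hormone receptor for dafachronic acids and acts downstream of insulin and TGF-beta signalling in the decision between dauer and reproductive development. Most family members are made in neurons, and some are made in the intestine.

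The sequences under the strongest regions are shown first, so that the summits can be read against the hexamers that DAF-12 and related receptors bind. A summit is the base of highest signal within a region. Sequences are from the plus strand of ce11, 5' to 3', and capitals mark matches on either strand to any of 7 hexamers of the nuclear receptor type (AGTGTG or AGTGCA, both of which DAF-12 is known to bind, the related AGTGCG or AGTACA, the variant AGTTCA, and the classical AGGTCA with its variant AGGACA). The run for ins-39 (chrX:1344959-1345166) spans the summits of both replicates, with 50 bp added at either end. Those for ins-13 (chrII:5543638-5543738), ins-17 (chrIII:4475632-4475732), ins-37 (chrII:13834456-13834556), ins-10 (chrV:14035613-14035713) and the region between ins-12 and ins-11 (chrII:5555670-5555770) reach 50 bp to either side of the pooled summit. The last, for ins-5 (chrII:5997680-5997704), reaches 12 bp to either side of a summit in a 5' UTR.
ins-39: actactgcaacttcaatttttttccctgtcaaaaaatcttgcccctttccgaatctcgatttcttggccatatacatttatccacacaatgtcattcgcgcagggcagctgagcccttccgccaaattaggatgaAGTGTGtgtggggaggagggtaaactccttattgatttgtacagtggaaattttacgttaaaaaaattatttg
ins-13: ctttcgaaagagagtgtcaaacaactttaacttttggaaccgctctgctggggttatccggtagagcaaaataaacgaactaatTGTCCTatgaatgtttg
ins-17: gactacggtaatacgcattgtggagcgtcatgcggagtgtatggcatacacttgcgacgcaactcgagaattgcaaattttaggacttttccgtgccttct
ins-37: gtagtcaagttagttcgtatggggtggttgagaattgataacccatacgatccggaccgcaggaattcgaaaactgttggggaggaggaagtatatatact
ins-10: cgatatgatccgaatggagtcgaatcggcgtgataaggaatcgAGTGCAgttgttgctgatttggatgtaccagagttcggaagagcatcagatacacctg
ins-11 and ins-12: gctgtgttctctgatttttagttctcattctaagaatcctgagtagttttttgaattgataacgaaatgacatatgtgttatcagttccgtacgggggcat
ins-5: tctttgattCACACTtgtttcaact

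For each gene the best region was the one with the highest signal among those whose summit lay within 2 kb of an annotated start or inside the gene. The authors' lists hold 30000 regions each, background included, for both replicates pooled and for each replicate alone. Signal is the authors' value per region. Its scale is not stated. No read counts came with it, which leaves the depth unknown and the counting error of a value without an estimate. Pooled signal ran from 9.10 to 178, replicate 1 from 4.79 to 78.9 and replicate 2 from 5.80 to 102. The signal at rank 1000 was 21.6 in the pooled list, 12.8 in replicate 1 and 14.3 in replicate 2. The authors also kept 150 regions by IDR, the irreproducible discovery rate, which asks whether a region ranks alike in both replicates, and the lowest of these had a pooled signal of 33.5. For scale, cel-mir-241, a let-7 family microRNA gene and known DAF-12 target, had a pooled signal of 136 at rank 3, and daf-12 itself had 60.4 at rank 40.

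IDR regions lay at 4 of the 39 coding genes, ins-39, ins-13, ins-17 and ins-37. That is 10.3% of the family, beside 0.881% of all protein-coding genes (176 of 19973). A 2 kb window catches neighbours too, and 2 of the 4, ins-17 and ins-37, had another coding start nearer to the summit. With each region given to its nearest coding start alone, the count was 2, beside 0.541% of all coding genes. With a window of 1 kb it was 1, ins-39, beside 0.641%. Among the 150 highest regions of each replicate alone, replicate 2 had all 4 genes, beside 0.886% of all coding genes. Replicate 1 had ins-39 and ins-13, beside 0.856%. The genes are short, with a median length of 655 bp against 2027 bp for all coding genes, and among the coding genes no longer than the longest member (2788 bp) 0.711% had an IDR region. FLP and NLP neuropeptide genes, which also encode secreted peptides, had 1 of 102 (0.980%), which was nlp-33, and their median best pooled signal was 13.1.

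**Figure D1:**
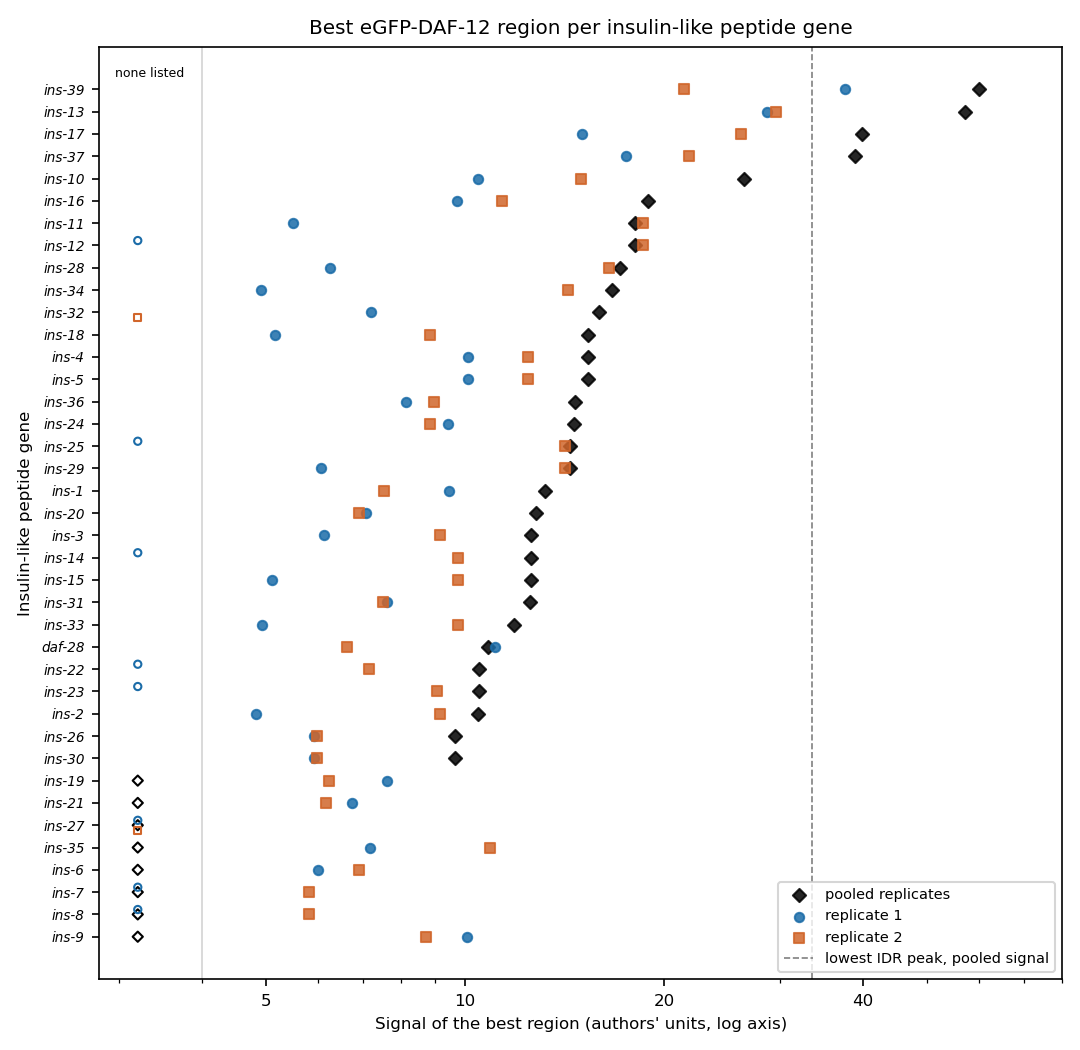
Signal of the best region of each insulin-like peptide gene (log axis, authors' units) in the pooled list and in each replicate, ordered by pooled signal, with members without a region at the left edge. The 4 members with IDR regions stand at pooled signals of 38.9 to 60.0 and the next, ins-10, at 26.5.

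Over the whole family, the 4 IDR genes included, median values lay near those of other genes. Median best signal was 12.8 for members and 12.4 for all coding genes in the pooled list, with genes without a region counted as 0. It was 6.25 against 6.89 in replicate 1 and 9.18 against 8.16 in replicate 2. Members above the all-gene median numbered 24 of 39 in the pooled list, 18 in replicate 1 and 25 in replicate 2, so the family lay to either side of the median depending on the replicate. A best pooled region among the 1000 highest was found at 5 members (12.8%), the 4 IDR genes and ins-10. The share was 5.24% of all coding genes and 4.02% of those no longer than the longest member. With a window of 1 kb the members' share was 2.56%, below the 3.98% of all coding genes, and at 5 kb it was 12.8% beside 9.58%. The 4 IDR genes had best regions among the 1000 highest of both replicates (10.3%, beside 1.37% of all coding genes). IDR keeps regions that rank alike in both replicates, so this count largely follows from that selection and is no separate result. Of the 39, 26 had a best pooled region ranked past 1000, 13 of those past 10000, and 8 had none. Of the 19973 coding genes, 1047 had one among the 1000 highest and 4428 had none. The all-gene share past rank 10000 was not computed.

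**Figure D2:**
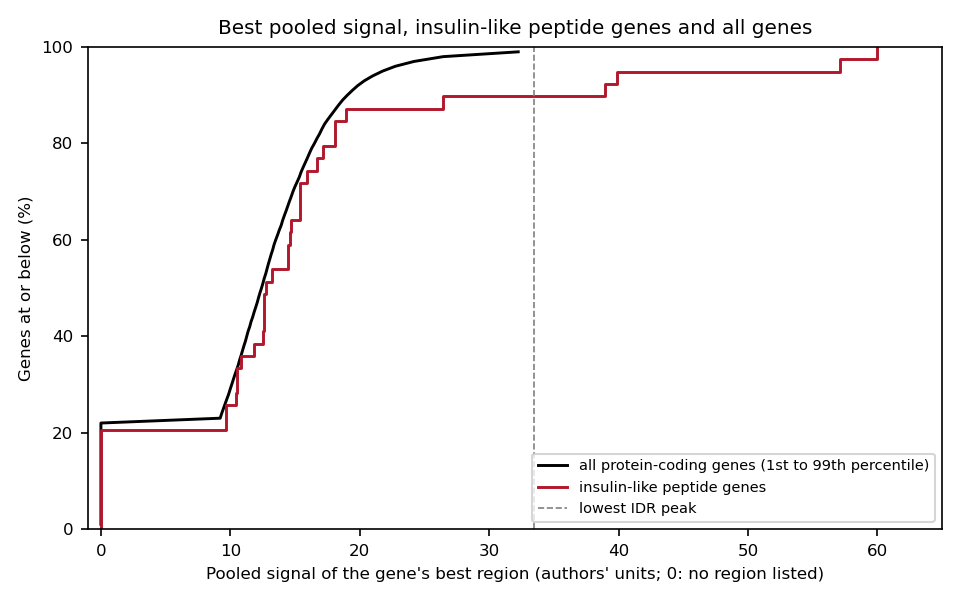
Cumulative share of genes by pooled signal of the best region (authors' units, genes without a region at 0) for insulin-like peptide genes and all protein-coding genes, with the lowest IDR region as a dashed line. The curves run close together at the middle, with medians of 12.8 and 12.4, and the 4 IDR members form the upper end of the family's curve.

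ins-39 had the highest signal of the family. Its best region had a signal of 37.6 in replicate 1 (rank 29), 21.5 in replicate 2 (rank 114) and 60.0 in the pooled list (rank 43). Both replicates were high, and replicate 1 was the higher. The pooled summit lay 588 bp upstream of the gene's start (gene chrX:1343758-1344421, minus strand), and the replicates' summits lay 695 bp and 589 bp upstream. Of the 4, this was the only summit upstream of its insulin-like peptide gene. No other annotated gene lay within 2 kb, piRNA genes aside. The summits of the replicates were 106 bp apart, just past the 100 bp taken here as the same place.

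AGTGTG, one of the DAF-12 hexamers, occurs in the printed ins-39 run between the summits, on the plus strand. It lies 85 to 90 bp from the pooled summit and 17 to 22 bp from that of replicate 1, which is 673 to 678 bp upstream of the start. It is therefore outside the window of 50 bp to either side of the pooled summit. In windows of the same 208 bp centred on the summit, 19.3% of IDR regions and 7.61% of the best regions of all coding genes held AGTGTG. The ins-39 run is not centred but extended to take in the summit of replicate 1, so these windows are alike in length only.

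ins-13 came next, with a signal of 28.6 in replicate 1 (rank 49), 29.6 in replicate 2 (rank 44) and 57.1 in the pooled list (rank 45). The replicates were nearly equal, and their summits were 10 bp apart. The pooled summit (II:5543688) lay 1176 bp downstream of the start of ins-13 (II:5544512-5544864, minus strand), past its 3' end. It was inside sls-2.2 (II:5543598-5543707, plus strand), 90 bp from the start of that gene, and inside the antisense non-coding RNA gene C17C3.23. sls-2.2 encodes an SL2 RNA, the spliced leader that is trans-spliced onto messages of downstream genes in operons. A further SL2 RNA gene, sls-2.3, had its start 585 bp from the summit, but among coding genes the start of ins-13 was the nearest.

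Other SL2 RNA genes, looked at after the ins-13 values were seen, give that region a context. Of the 18 in the annotation, 11 had a pooled region with its summit within 100 bp of the gene. At 4 of these genes it was among the 150 highest regions of the pooled list. They were sls-2.1 with a pooled signal of 108 (rank 9), sls-2.2, sls-2.4 with 48.6 (rank 62) and sls-2.8 with 42.0 (rank 78). Replicates 1 and 2 had 62.5 and 45.3 at sls-2.1, 46.1 and 20.6 at sls-2.4, and 20.6 and 17 at sls-2.8. The other 7 had no pooled region there. Whether the signal beside ins-13 belongs to the SL2 RNA gene or to ins-13 was not tested.

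ins-17 had a signal of 15.0 in replicate 1 (rank 413), 26.2 in replicate 2 (rank 58) and 39.9 in the pooled list (rank 90). Replicate 2 was the higher, and the summits were 146 bp apart. The pooled summit (III:4475682) lay 1890 bp downstream of the start of ins-17 (III:4476918-4477572, minus strand), close to the 2 kb limit. The start of rps-1, a ribosomal protein gene of the small subunit named rps-3A in RefSeq, was 236 bp away, and that of ifet-1, which encodes an eIF4E-binding translational repressor, was 532 bp away. The summit was between these divergent genes and inside the non-coding RNA gene F56F3.10.

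ins-37 had a signal of 17.5 in replicate 1 (rank 207), 21.8 in replicate 2 (rank 109) and 38.9 in the pooled list (rank 97). The replicates were close, and their summits were 44 bp apart. The pooled summit (II:13834506) lay 1601 bp downstream of the start of ins-37 (II:13835101-13836107, minus strand), past its 3' end. The start of the coding gene F08G2.5 was nearer, at 875 bp. Again the summit was inside a non-coding RNA gene, F08G2.13, 17 bp from its start.

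**Figure D3:**
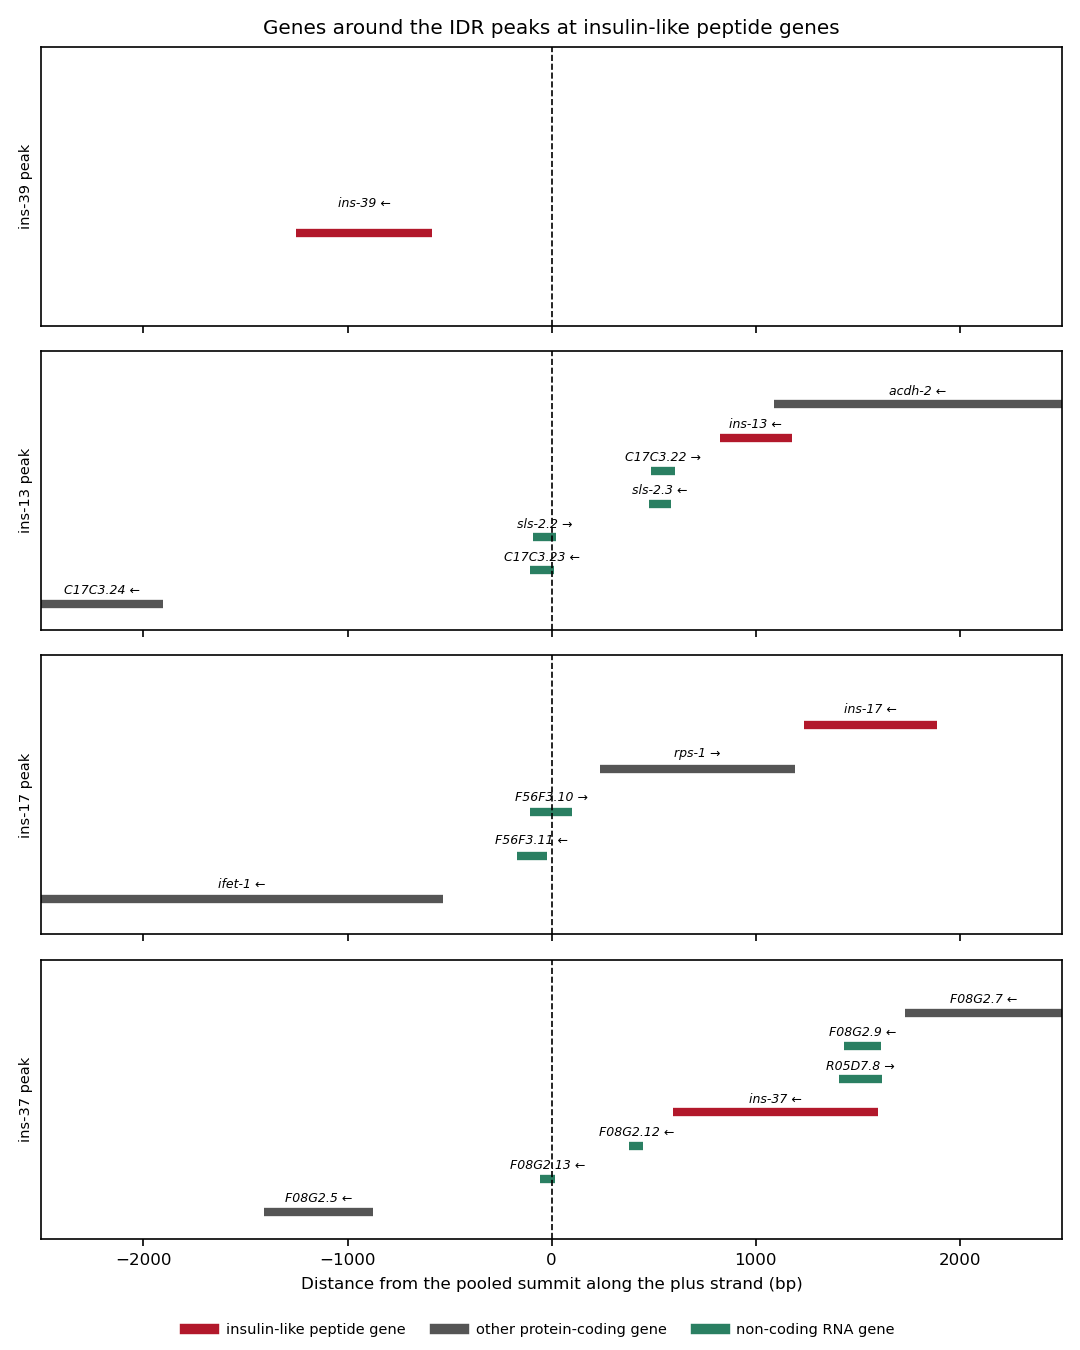
Genes within 2 kb of the pooled summit (dashed line) of each IDR region at an insulin-like peptide gene, piRNA genes left out. The axis gives distance from the summit along the plus strand in bp, to 2.5 kb on either side. Arrows give the strand. The summits at ins-13, ins-17 and ins-37 fall inside non-coding RNA genes, while that at ins-39 has no other such gene within 2 kb.

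Summits at 3 of the 4 family IDR regions (75%) were thus inside annotated non-coding RNA genes, piRNA genes not counted. The same was true of 10 of the other 146 IDR regions (6.85%), of 581 of the 30000 pooled regions (1.94%), and of 0 of the other 21 best regions of members. With summits inside non-coding RNA genes left out, IDR regions remained at 1 member, ins-39, beside 0.796% of all coding genes.

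ins-10 had a signal of 10.5 in replicate 1 (rank 2722), 15.0 in replicate 2 (rank 750) and 26.5 in the pooled list (rank 353). Replicate 2 was the higher and within its 1000 highest regions, replicate 1 was not, and the summits were 43 bp apart. The pooled summit lay 1714 bp downstream of the start of ins-10 and inside a coding exon of vps-39, which overlaps ins-10 on the other strand and encodes a subunit of the HOPS complex for fusion with lysosomes. The printed run holds AGTGCA at 7 to 2 bp before the summit, and the best windows of both replicates hold it too.

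Best regions recurred between replicates, with summits within 100 bp, at 3 members, ins-10, ins-13 and ins-37 (7.69%), beside 6.74% of all coding genes. The share is close to the background. With 200 bp allowed, 7 members qualified, beside 10.3% of all coding genes, and ins-39, ins-17, ins-16 and ins-21 were those added. Over the 30 members with a region in both replicates, Spearman's rho of the replicates' best signals was 0.324, against 0.163 over 12871 coding genes. These are descriptions across genes, which share libraries and in part share regions.

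Replicate 2 had more members among its 1000 highest regions, 9 (23.1%, beside 5.44% of all coding genes) against 4 in replicate 1 (10.3%, beside 5.37%). The 5 found in replicate 2 alone were ins-28, ins-12, ins-11, ins-34 and ins-10, and replicate 1 alone had 0. Over all coding genes, 1086 had a best region that high in replicate 2 and 1072 in replicate 1, but only 274 in both. ins-11, an intestinal peptide gene induced by bacterial pathogens, and its neighbour ins-12 had the same best region, with a summit 1011 bp upstream of ins-11 and 1103 bp downstream of the start of ins-12. Its signal was 18.6 in replicate 2 (rank 208) and 18.1 in the pooled list (rank 2650), and replicate 1 had no region within 100 bp. At ins-28 the pooled summit was 52 bp upstream of the start, with a signal of 17.1 (rank 3450). The best region of ins-28 in replicate 2 had 16.5 (rank 412), 4 bp from the pooled summit. That in replicate 1 had 6.25 but lay 1265 bp away, and replicate 1 had no region within 100 bp of the pooled summit. At ins-34 the pooled summit was 560 bp upstream with a signal of 16.7. The best region of ins-34 in replicate 2 had 14.3 (rank 989), with the same summit. That in replicate 1 had 4.92 but lay 762 bp away, and replicate 1 again had no region within 100 bp of the pooled summit. These regions are high in a single library and none was in the IDR list.

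Of the agonists known to hold off dauer arrest, daf-28, ins-4 and ins-6 were looked at, and none had an IDR region. With an all-gene share of 0.881%, nothing can be read from this absence at so few genes. daf-28, a DAF-2 agonist made in sensory neurons, had a best signal of 11.1 in replicate 1 (rank 2034), 6.63 in replicate 2 (rank 22931) and 10.8 in the pooled list (rank 19999). The first exceeded the best signals of 89.5% of coding genes and the last those of 36.1%. Replicate 1 was the higher, and the summits of the replicates were 1607 bp apart, so they mark different places. The pooled summit was in an intron, 348 bp past the nearest start. ins-4, another agonist, and its neighbour ins-5 had the same best region. Its summit lay in the 5' UTR of ins-5, 135 bp past that start and 1326 bp past the start of ins-4. The signal was 15.3 in the pooled list (rank 5956), and the best regions had 10.1 in replicate 1 (rank 3248) and 12.5 in replicate 2 (rank 2195). These exceeded the best signals of 73.1%, 84.0% and 88.7% of coding genes in turn. The summit of replicate 1 was 44 bp from the pooled one, but that of replicate 2 was 343 bp away, and replicate 2 had no region within 100 bp of the pooled summit. The printed run for ins-5 shows AGTGTG, read on the minus strand, across the pooled summit. ins-6, which promotes exit from dauer, had no pooled region, and the nearest summit was 2271 bp from its start. It had low regions in replicate 1 (5.98) and in replicate 2 (6.91), 410 bp apart.

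Of genes described as antagonists, ins-18 and ins-1 were taken as examples, and neither had an IDR region. With an all-gene share of 0.881%, nothing about antagonists as a group can be read from this. ins-18, which opposes DAF-2 signalling, had a pooled summit 16 bp past its start with a signal of 15.4 (rank 5901), and its best regions had 5.16 in replicate 1 and 8.86 in replicate 2. ins-1, also an antagonist, had a pooled signal of 13.2 (rank 10797) with a summit 1853 bp past its start, nearer to the start of F13B12.3. Its best regions had 9.46 in replicate 1 and 7.55 in replicate 2, with summits 1414 bp apart. Neither gene had a best region that recurred within 100 bp.

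ins-7, an intestinal agonist known for its feedback with DAF-16, had no pooled region within the window. The nearest pooled summit was 2062 bp away, just past the limit, with a signal of 15.1 (rank 6366). Only replicate 2 listed a region for it, at 5.80, next to the lowest value of that list, and ins-8 beside it had the same one. ins-33, described as a target of the timing factor LIN-14, had a pooled signal of 11.8 (rank 15525), 1344 bp upstream of its start in an intron of dkf-1, a protein kinase D gene. Its best region in replicate 1, 43 bp from the pooled summit, had 4.93. The best in replicate 2 had 9.77 but lay 3021 bp from the pooled summit, downstream of ins-33. Within 100 bp of the pooled summit replicate 2 had 6.01 (rank 28098).

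Members stand in groups along the chromosomes, and 24 of the 39 fall into 7 clusters with neighbouring starts within 10 kb. The members are 10 on chromosome I, 15 on II, 5 on III, 4 on IV, 3 on V and 2 on X, and the IDR genes are 2 on II, 1 on III and 1 on X. The largest cluster, on chromosome I, holds 7 genes in 25409 bp (ins-24 to ins-30), and its highest pooled signal was 17.1, at ins-28. The cluster of ins-2 to ins-6 on chromosome II holds 5 genes in 12486 bp and reached 15.3. ins-11, ins-12 and ins-13 span 12662 bp and reached 57.1, at ins-13. ins-14 and ins-15 reached 12.6, as did ins-19 and ins-31, ins-21 to ins-23 reached 10.5, and ins-7 and ins-8 had no pooled region. Of the 4 IDR genes, 1 was in a cluster. High signal thus lay in the windows of single members and of no cluster as a whole. Whether it belongs to those members or to their neighbours was not tested.

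Clustered genes shared regions. The 31 members with a pooled region had 25 distinct best regions, and 6 of these were the best of a pair of members. The pairs were ins-4 with ins-5, ins-11 with ins-12, ins-14 with ins-15, ins-22 with ins-23, ins-25 with ins-29 and ins-26 with ins-30. Over all coding genes, the 15545 with a pooled region had 11810 distinct best regions, so sharing was not particular to the family. A shared region counts for both genes above, so members of a pair are not independent. The nearest coding start was the member's own in 19 of the 31. The same share was not computed over all coding genes, so whether this is high or low is not known.

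**Figure D4:**
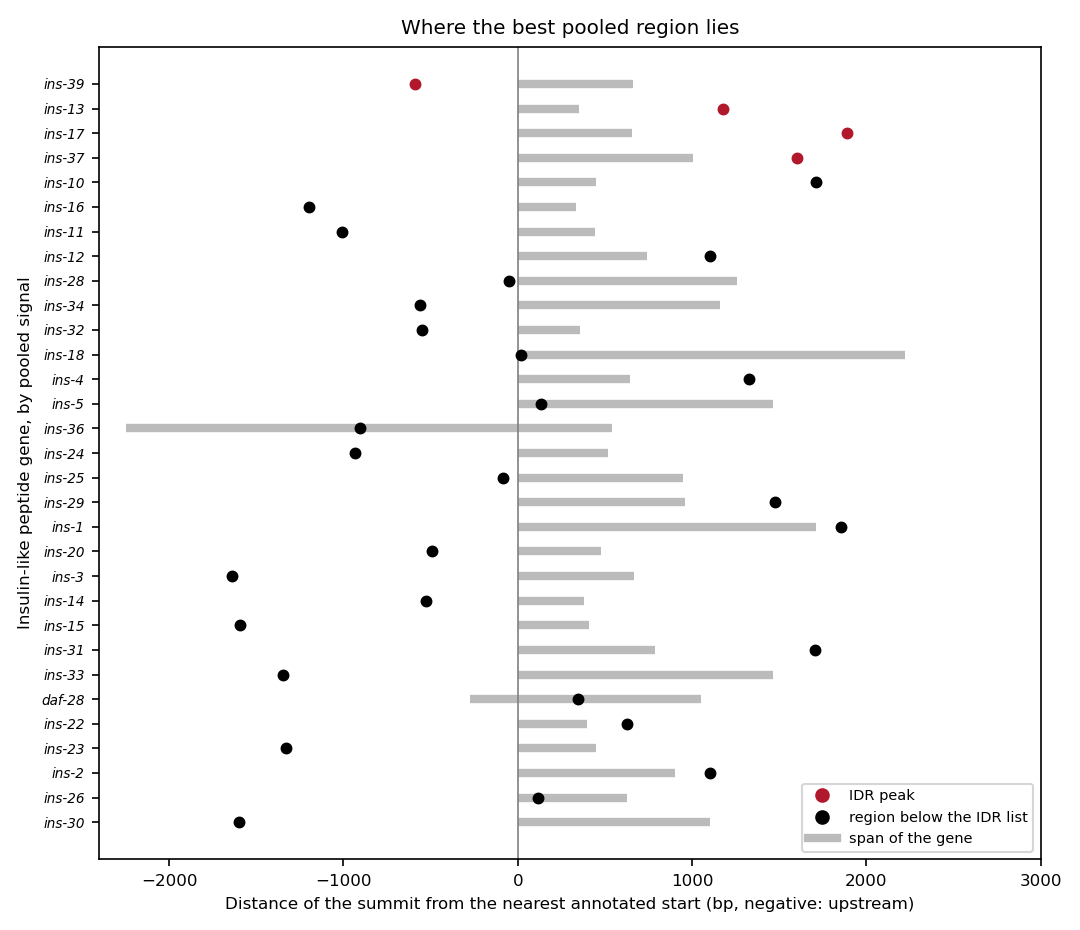
Position of the best pooled summit relative to the nearest annotated start of each of the 31 members with a region (bp, negative upstream), with grey bars for the span of each gene. Of the 4 IDR summits (red), that of ins-39 is upstream and the others are past the 3' ends.

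Best pooled summits were upstream of the gene at 15 of the 31 members (48.4%), inside it at 5 (16.1%) and downstream at 11 (35.5%). Over all coding genes with a region the shares were 43.5%, 44.8% and 11.6%, and over those no longer than the longest member 50.5%, 30.9% and 18.6%. The part of gene length and of clustering in the larger downstream share was not tested.

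The 8 members without a pooled region were ins-6, ins-7, ins-8, ins-9, ins-19, ins-21, ins-27 and ins-35. For these 8 members the nearest pooled summit was 2062 to 8111 bp away, and its signal was 9.11 to 19.9. ins-35 was farthest from any. ins-27 had no region in any of the 3 lists, while ins-9 had best regions of 10.1 in replicate 1 (rank 3282) and 8.74 in replicate 2, 994 bp apart. The lowest members with a pooled region were ins-26 and ins-30, which share one of 9.66 (rank 26382), and ins-2 with 10.5 (rank 21924). Such values lie at the background end of the list.

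Of the remaining members, ins-16 was the highest, with a pooled summit 1196 bp upstream, no nearer coding start and a signal of 18.9 (rank 2063). Its best regions had 9.72 in replicate 1 and 11.4 in replicate 2, 135 bp apart. ins-32 had a pooled signal of 16, and replicate 2 listed no region for it. The pooled signals of ins-24, ins-25, ins-29 and ins-36 were between 14.4 and 14.7. ins-3 had 12.6 and ins-20 had 12.8. The pooled summit in ins-36 was 9 bp from the start of Y53H1A.7. The pseudogene ins-38 had a pooled signal of 13 (rank 11415), with 5.34 in replicate 1 and 7.34 in replicate 2.

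AGTGTG or AGTGCA, searched on both strands within 50 bp of the summit, occurred in 2 of the 25 distinct best regions (8.0%), those of ins-10 and of ins-4 with ins-5. The best regions of all coding genes held either in 7.13% (842 of 11810), windows centred on coding starts in 6.69% and IDR regions in 22% (33 of 150). The share moved with the windows read. It was 24.0% beside 13.9% with 100 bp to either side, 16.7% beside 6.70% for the best regions of replicate 2 and 17.9% beside 7.49% for those of replicate 1. None of the 4 IDR members had either hexamer within 50 bp of the pooled summit. That of ins-13 held AGGACA on the minus strand, which 4.0% of IDR regions hold, and GAGAG, which 46.7% of them hold. Mean GC content was 37.3% for the members' windows, 34.4% for those of all coding genes and 46.8% for IDR regions. A match is a description of these letters only.

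Genes that act on or after the peptides were taken as 2 short lists, for which the all-gene share of 0.881% amounts to less than 1 gene each. In the insulin receptor pathway 0 of 11 had an IDR region, from which nothing can be read, with a highest pooled signal of 26.9 (rank 329) at daf-16, the FOXO factor, and 22.4 (rank 807) at daf-2, the receptor. The other 9 had 11.5 to 19.3. Among 10 genes of peptide processing and release the count was also 0, and the highest was ida-1, a dense-core vesicle protein gene, with 22 (rank 896). These genes are longer, with median lengths of 7281 bp and 5164 bp, and a longer gene has more regions to choose its best from.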

How the data were processed

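ChIP-seq regions from 2 biological replicates of L3 larvae were analysed as deposited. The signal of each region was deposited by the authors, in ce11, for each replicate and for the pair pooled. The IDR threshold, aligner and peak caller are not given in the sources used here. Control data, signal tracks and ce10 lists were not used here. Depth is unknown.

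Gene models were from Ensembl release 115 (WBcel235, the assembly ce11 names), with RefSeq used for symbols and for ins-38. For each gene the region of highest signal with its summit within 2 kb of a start or inside the gene was taken, and the replicates' best regions may differ from the pooled one. Genes without a region counted as 0 in medians. Python 3.11.15 with numpy 2.4.6, scipy 1.17.1 and matplotlib 3.10.9 was used, and the assignment was checked on simulated data. With 1 group there was no contrast and no p-value was computed.

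Members and gene lists were chosen with earlier results of these data known. AGTGTG and AGTGCA had also been named by earlier results of these data, so their shares among IDR regions are not an independent reference. The genes named are members with an IDR region, with a best region among the 1000 highest, with the 3 highest or lowest pooled signals or with a known role, with clusters and shared regions named as groups. SL2 RNA genes and the remaining members were chosen for naming after seeing their values. Alternatives were other windows, list lengths, overlaps and each replicate alone.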

Additional observations from a re-analysis of the deposited data

How the results depend on the processing

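With the window at 1 kb in place of 2 kb, IDR regions were at 1 member in place of 4 (2.56%, beside 0.641% of all coding genes). Members above the all-gene median numbered 15 in place of 24. Members among the 1000 highest numbered 1 in place of 5 (2.56%, beside 3.98%), and recurring best regions 0 in place of 3 (beside 6.17%). At 5 kb these counts were within 1.5 times those reported, while the share of all coding genes rose from 0.881% to 1.61% for IDR regions and from 5.24% to 9.58% for the 1000 highest. The 75 highest IDR regions left 2 members (5.13%, beside 0.456% of all coding genes). Giving each region to its nearest start left 2 (5.13%, beside 0.541%). In alternatives chosen after seeing the data, summits upstream of a start left 1 member (2.56%, beside 0.666%). Summits outside non-coding RNA genes also left 1 (2.56%, beside 0.796%). Allowing 200 bp between the replicates' summits gave 7 recurring members (17.9%, beside 10.3%). Reading 100 bp to either side of the summit gave AGTGTG or AGTGCA in 6 of 25 regions (24.0%, beside 13.9% of all coding genes' best regions).

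With either replicate alone, using its 150 highest regions, members with such a region numbered 2 to 4. Replicate 2 alone kept 4 (10.3%, beside 0.886% of all coding genes). Replicate 1 alone kept ins-39 and ins-13 (5.13%, beside 0.856%). Members above the median numbered 18 to 25 (46.2% to 64.1%) and members among the 1000 highest 4 to 9 (10.3% beside 5.37% and 23.1% beside 5.44%). Regions with either hexamer numbered 5 to 5, of 30 in replicate 2 (16.7%, beside 6.70%) and of 28 in replicate 1 (17.9%, beside 7.49%), against 8.0% beside 7.13% in the pooled list. The causes of these differences were not tested. With 2 replicates and no read counts, the spread of any signal value is known only from its pair.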
